A study of Mus musculus with 2 samples.

Results

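The 9 brown fat thermogenic genes described here are Ucp1, Cidea, Dio2, Elovl3, Prdm16, Ppargc1a, Cpt1b, Zic1 and Otop1. They were taken by symbol from the 43346 mouse genes quantified in each of 2 adrenal gland libraries, and all 9 symbols were found. They were chosen by their measured levels, TPM and expected counts in these libraries having been seen before, so the levels and the difference between the libraries are given as a description, with no test. The glands came from adult C57BL/6J mice, littermates of mixed sex, at 8 weeks of age, with no treatment or mutation named in the labels. Poly(A) RNA longer than 200 nt, depleted of ribosomal RNA, was sequenced as stranded pairs of 76 nt, with spike-in RNAs added. The libraries are biological replicates 1 and 2 of a single group, with separate biosample entries and a shared donor entry in their labels. The sources used here do not say whether a library pooled several animals or glands.

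Brown adipocytes burn fatty acids to make heat. Sympathetic nerves release noradrenaline onto beta-adrenergic receptors of these cells, cyclic AMP rises, lipid droplets are broken down, and the freed fatty acids open a proton leak in the inner mitochondrial membrane. Ucp1 is that leak. Cpt1b admits fatty acids to mitochondria, Dio2 makes the active thyroid hormone inside the cell, Elovl3 lengthens fatty acids, Cidea sits on lipid droplets, and Prdm16, Ppargc1a and Zic1 act in the nucleus on the brown fat programme. Otop1 encodes a proton channel. In rodents, brown adipocytes are known to lie in the fat around the adrenal gland.

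Ucp1 was the leading transcript of the 9. Cpt1b and Cidea came next, in an order that depended on short transcripts of Cpt1b, as described below. Dio2, Ppargc1a and Zic1 stayed under 1 TPM (a transcript level divided by length and scaled to a fixed total) in both libraries. The sequences that bear on these results are shown first. RefSeq gave a promoter for 6 of the 9 genes on GRCm38.p6. Those of Ucp1 and Otop1 are shown because these genes led the difference between the libraries, and those of Dio2 and Ppargc1a because both genes, classical targets of cyclic AMP signalling, had low levels. Each line holds the 250 bases before the RefSeq start, 5′ to 3′ on the strand of the gene, with matches to the searched motifs in capitals.
Ucp1 promoter, chr8:83290098-83290347, plus strand: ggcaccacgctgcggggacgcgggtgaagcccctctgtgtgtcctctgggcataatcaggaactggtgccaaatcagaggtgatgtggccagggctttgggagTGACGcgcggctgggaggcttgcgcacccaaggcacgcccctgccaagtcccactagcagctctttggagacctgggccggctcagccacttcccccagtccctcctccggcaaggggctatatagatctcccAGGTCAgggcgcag
Otop1 promoter, chr5:38277154-38277403, plus strand: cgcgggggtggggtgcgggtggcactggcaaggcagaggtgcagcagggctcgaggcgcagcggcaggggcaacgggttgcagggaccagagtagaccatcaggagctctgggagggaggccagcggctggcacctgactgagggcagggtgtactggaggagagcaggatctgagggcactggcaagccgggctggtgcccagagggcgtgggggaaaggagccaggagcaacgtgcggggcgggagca
Dio2 promoter, chr12:90739039-90739288, minus strand: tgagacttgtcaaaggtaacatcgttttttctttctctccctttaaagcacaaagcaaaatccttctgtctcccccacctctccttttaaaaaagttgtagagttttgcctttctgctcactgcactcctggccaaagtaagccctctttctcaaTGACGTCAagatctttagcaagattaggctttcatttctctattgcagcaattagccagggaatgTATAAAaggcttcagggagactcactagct
Ppargc1a promoter, chr5:51567726-51567975, minus strand: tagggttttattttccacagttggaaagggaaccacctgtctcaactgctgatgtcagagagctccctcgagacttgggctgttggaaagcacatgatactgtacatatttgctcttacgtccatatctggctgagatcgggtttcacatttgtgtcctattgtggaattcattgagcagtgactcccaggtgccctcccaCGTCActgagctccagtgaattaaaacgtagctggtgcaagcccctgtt
The motifs were searched on both strands. The full cyclic AMP response element TGACGTCA was found in 1 of the 6 promoters, that of Dio2, from 95 to 88 bases before the start. It occurs in 508 of 32851 promoters (1.55%). Its core TGACG, which lies on both strands of the full element, was found in Ucp1 (147 to 143 bases before the start), Ppargc1a (49 to 45, on the opposite strand) and Dio2, against 17.8% of all promoters. The nuclear receptor motif AGGTCA was found in Ucp1 from 14 to 9 bases before the start (14.0% of all promoters), and TATAAA in Dio2 from 30 to 25 bases before it (12.4%). Otop1 held none of the 4 motifs. These are matches of letters and not measured binding. For Dio2 and Otop1 the GENCODE start lies elsewhere, at 90738438 and 38275972, so these windows belong to the RefSeq start.

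Ucp1 (mm10 chromosome 8, 83290352 to 83298452, plus strand) had 1128.72 TPM in the first library (replicate 1) and 544.30 TPM in the second (replicate 2), a mean of 837 ± 413 TPM (SD, n = 2). It ranked 107th and 272nd among all mouse genes. Ucp1 supplied 80.9% of the summed TPM of the 9 genes in replicate 1 and 69.8% in replicate 2. Relative to Adipoq, the hormone adiponectin that all adipocytes make, the TPM of Ucp1 was 4.70 times as high in replicate 1 and 3.96 times in replicate 2.

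Cidea (chromosome 18, 67343604 to 67367785, plus strand) was quantified at 113.88 and 92.25 TPM (103 ± 15.3). That is 10.1% of the Ucp1 level in replicate 1 and 16.9% in replicate 2. Cpt1b (chromosome 15, 89416405 to 89425863, minus strand), the carnitine palmitoyltransferase of muscle and brown fat, was at 116.72 and 119.09 TPM (118 ± 1.68). The means of Cpt1b and Cidea differed by less than the SD of Cidea. Otop1 (chromosome 5, 38275972 to 38304217, plus strand) followed at 24.13 and 12.83 TPM (18.5 ± 7.99), which was 2.14% and 2.36% of Ucp1.

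Prdm16 (chromosome 4, 154316125 to 154636873, minus strand), a zinc finger regulator of brown fat identity, was at 5.67 and 7.17 TPM (6.42 ± 1.06). Elovl3 (chromosome 19, 46131897 to 46135694, plus strand) was at 5.47 and 2.96 TPM (4.22 ± 1.77), 0.485% and 0.544% of Ucp1. The ranges of these neighbours in the order came close without overlapping. In all, 6 of the 9 genes reached 1 TPM in both libraries, against 28.7% of all mouse genes, and nothing is read from that share since the genes were chosen with their levels known.

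Dio2 (chromosome 12, 90724552 to 90738438, minus strand), the deiodinase that activates thyroid hormone, was at 0.71 and 0.44 TPM (0.575 ± 0.191) on 138 and 91 expected counts. Ppargc1a (chromosome 5, 51454250 to 51567726, minus strand), the coactivator of mitochondrial biogenesis, was at 0.47 and 0.57 TPM (0.52 ± 0.0707) on 58 and 48 counts. The ranges of Dio2 and Ppargc1a overlapped, so their order was not resolved. Zic1 (chromosome 9, 91358058 to 91365810, minus strand), a transcription factor known from classical brown depots, had 0 counts in replicate 1, which allows up to 3 counts, and 8 counts (0.08 TPM) in replicate 2. Such limits and all intervals below leave out every error but counting, and amplified reads are not separate molecules.

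**Figure D1:**
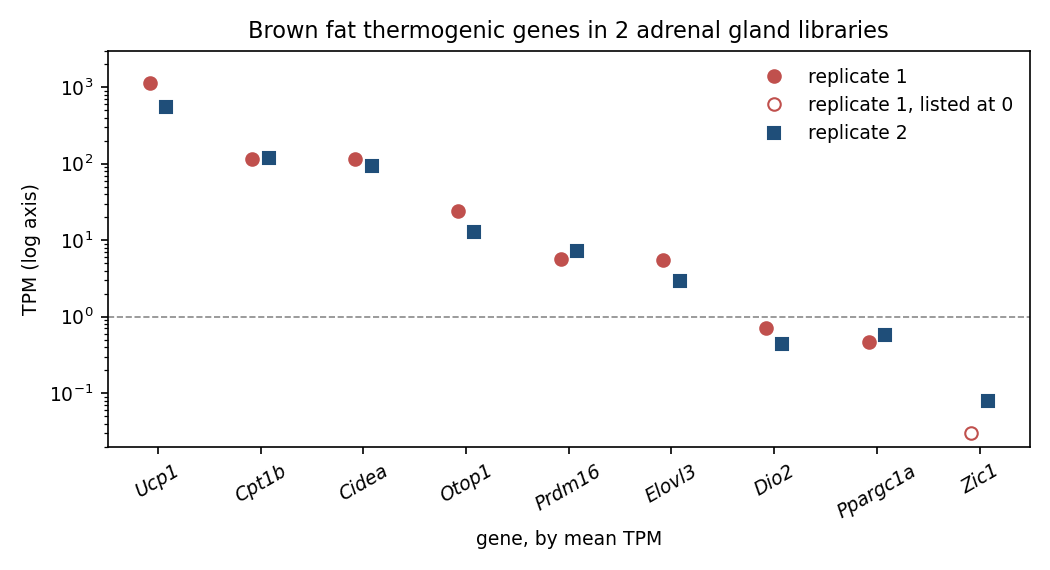
TPM of the 9 thermogenic genes on a log axis, 1 point per library (circles, replicate 1; squares, replicate 2), with 1 TPM dashed and a value listed at 0 drawn as an open symbol at the foot. Ucp1 stands at 1128.72 and 544.30 TPM, and Dio2, Ppargc1a and Zic1 lie under the dashed line in both libraries.

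With a single group, the question left by the design is how far the 2 libraries differed. Levels were compared as the log2 ratio of scaled expected counts, replicate 1 over replicate 2, with an exact 95% interval for counting error. A call means at least 2-fold, with no p-value, since 1 library against 1 has no replicate check. Zic1, with under 20 counts in all, was left out. Of the 15814 genes with enough counts, 753 (4.76%) were called higher in replicate 1 and 451 (2.85%) higher in replicate 2, and the median log2 ratio was -0.00057. Scaling to the spike-ins moved every log2 ratio by -0.43 and gave 322 and 1361 calls, so the directions below are relative to the other mouse genes.

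Ucp1 had 56860 expected counts in replicate 1 and 29473 in replicate 2. Its log2 ratio was 1.10 (interval 1.08 to 1.12), or 2.14-fold, and it was the 1 gene of the 8 compared that was called higher in replicate 1. Scaled to the spike-ins it stood at 0.67 and was not called, so 0 of the 8 were. None of the 8 was called higher in replicate 2. Otop1, with 2481 and 1413 counts, had a log2 ratio of 0.96 (0.87 to 1.06), and Elovl3, with 247 and 144 counts, had 0.93 (0.63 to 1.24). Dio2 followed at 0.75 (0.36 to 1.15). With these, 4 of the 8 genes were at least 1.5-fold higher in replicate 1, a size that 11.4% of all genes reached, and none was that much higher in replicate 2, where 8.18% of all genes were. Nothing is read from either share, because the list was chosen with this difference in view.

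Cpt1b, with 3770 and 3108 counts, had a log2 ratio of 0.43 (0.36 to 0.50), and Cidea, with 3835 and 3350 counts, had 0.35 (0.28 to 0.41). Scaled to the spike-ins, these 2 turned to -0.0037 and -0.087. The interval of Ppargc1a, 0.42 (-0.15 to 1.01), included 0, and its ratio turned to -0.0093 when scaled to the spike-ins. Prdm16 was the 1 gene with a negative ratio, at -0.16 (-0.33 to 0.0087), and its interval also included 0. The median over the 8 genes was 0.59. In all, 7 of the 8 had a positive ratio, against 4 when scaled to the spike-ins and 5 in TPM, where Cpt1b and Ppargc1a also turned negative. The log2 ratios ran from 1.10 for Ucp1 to -0.16 for Prdm16.

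**Figure D2:**
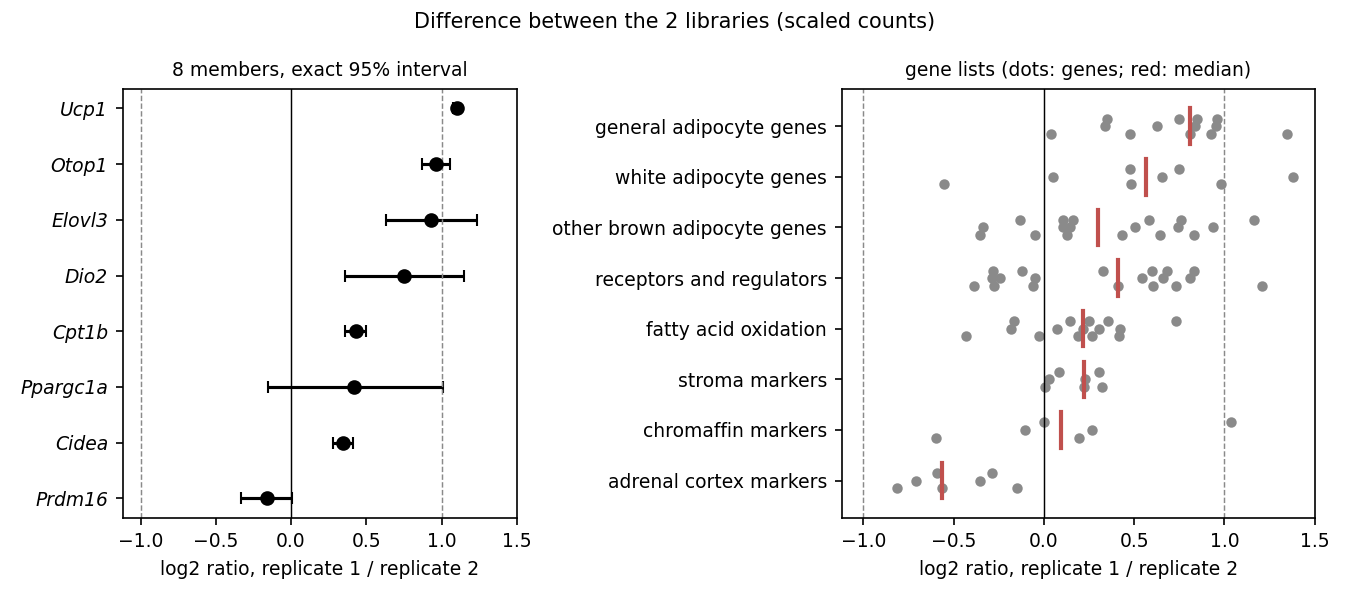
Log2 ratio of scaled counts, replicate 1 over replicate 2 and relative to the other mouse genes, for 8 thermogenic genes with exact 95% intervals (left) and for the tested genes of 8 lists (right, dots, with the median in red); dashed lines mark 2-fold. Ucp1, at 1.10, lies past the dashed line and Prdm16, at -0.16, lies left of 0; scaling to spike-ins would move every point by -0.43 and put Cidea, Cpt1b and Ppargc1a at or below 0.

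Among 1655 protein-coding genes with a mean of at least 100 TPM, 17 had a higher ratio than Ucp1. The 5 nearest to it in ratio, over the 2 libraries, were mt-Co2 (1.13), Pdk4 (1.14), Hp (1.15), Angptl4 (1.05) and Hspb1 (1.04). These are ratios of scaled counts. In TPM, Pdk4 (219.05 and 147.01) had a smaller ratio than Ucp1 (1128.72 and 544.30). mt-Co2 encodes a subunit of cytochrome oxidase, Pdk4 restrains the use of glucose, Hp is the plasma protein haptoglobin, Angptl4 inhibits lipoprotein lipase, and Hspb1 is a small heat shock protein.

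The transcript tables showed that the TPM of a gene could rest on few reads. Ucp1, Cidea, Dio2 and Elovl3 were quantified as 1 transcript each. For Cpt1b, the short retained-intron transcript Cpt1b-202 (339 nt) held 59.1% of the gene TPM in replicate 1 and 71.7% in replicate 2. It did so on 343 and 484 expected counts, because TPM divides by an effective length that was 143 and 153 nt for this transcript. The full-length Cpt1b-201 (2895 nt, 19 exons) had 3225 and 2470 counts and stood at 34.35 and 24.54 TPM. Thus Cpt1b was about equal between the libraries in gene TPM while its full-length transcript was higher in replicate 1 (log2 ratio 0.54, 0.46 to 0.61, an alternative added after the values were seen).

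Cpt1b-202 differs from the full-length transcript by a stretch of intron at its start, so its first 60 bases (mm10, chr15:89424412-89424471, minus strand) are shown with the 29 intron bases in capitals.
Cpt1b-202: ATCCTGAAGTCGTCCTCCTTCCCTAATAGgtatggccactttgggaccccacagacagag
The remaining 310 bases of Cpt1b-202 also occur in Cpt1b-201, so most reads on them could belong to either.

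For Prdm16, 7 of 13 transcripts were above 0. The 496 nt Prdm16-213 led with 48.7% and 53.1% of the gene TPM, on 28.8 and 43.8 counts, and the 851 nt Prdm16-211 held 23.9% and 22.1%. Transcripts under 1000 nt thus made up 72.5% and 75.2% of the TPM of Prdm16 but 11.8% and 13.2% of its counts. Transcripts of 2000 nt or longer, all of those with counts being annotated as protein-coding, had 446 and 546 counts, at 1.56 and 1.78 TPM. Taking only transcripts of that length, the mean level was 1.67 ± 0.156 TPM for Prdm16, below Elovl3, and 29.4 ± 6.94 TPM for Cpt1b, below Cidea. The place of both genes in the order of levels therefore depended on the short transcripts.

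Prdm16-213 starts at an exon of its own inside an intron of the long transcripts. This 73-base exon (mm10, chr4:154334850-154334922, minus strand) is shown in capitals, followed by the first bases of the next exon, because 35 of the 54 junction reads that enter the next exon left from it.
Prdm16-213: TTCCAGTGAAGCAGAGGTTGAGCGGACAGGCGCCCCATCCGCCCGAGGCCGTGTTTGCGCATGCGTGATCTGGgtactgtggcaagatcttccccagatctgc

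Otop1 was assigned wholly to Otop1-203 (3151 nt, annotated as a processed transcript) in both libraries, and its 2 protein-coding transcripts were at 0 counts. All 5 introns of Otop1-203 also occur in both protein-coding transcripts, so this split does not settle which transcript was made. The authors' posterior mean of TPM left 91.6% on Otop1-203 in replicate 1. For Ppargc1a the leading transcript changed between libraries, from Ppargc1a-201 (72.3% of the TPM) in replicate 1 to Ppargc1a-204 (64.7%) in replicate 2, on 29.6 and 9.01 counts. At this depth the split between Ppargc1a transcripts was not resolved.

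**Figure D3:**
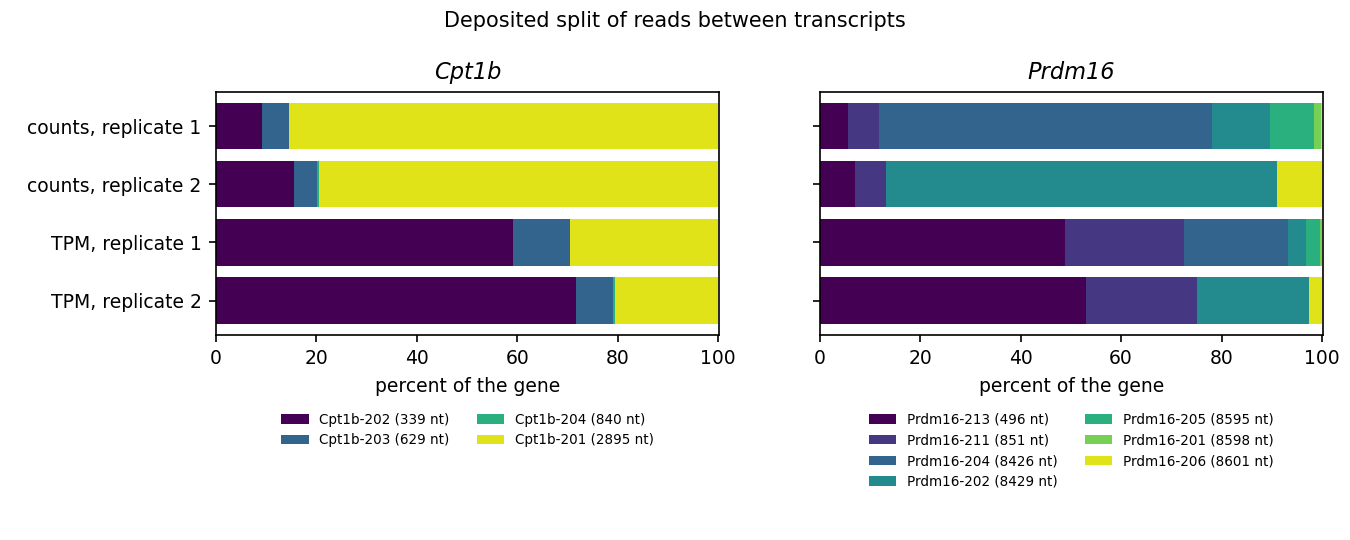
Share of each transcript of Cpt1b (left) and Prdm16 (right) in the expected counts (upper bars) and in the TPM (lower bars) of its gene in each library, in percent, ordered by length. The 339 nt Cpt1b-202 fills 9.10% of the counts of Cpt1b in replicate 1 but 59.1% of its TPM, and the transcripts of Prdm16 under 1000 nt go from 11.8% to 72.5%.

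Reads that cross splice junctions gave a readout separate from the division of reads between transcripts. The junction table pools both libraries, so it has no replicates, and it was matched to annotated introns by their lengths for 7 of the 9 genes, all but Dio2 and Zic1. An intron whose length differs between the builds would go unmatched. So would an intron of unchanged length whose spacing to the rest of its gene differs between the builds by more than 10 bases. Ucp1 had 3342 reads over all 5 introns, from 217 to 1359 per intron. Cpt1b had 5965 reads over all 18 introns of its full-length transcript, with a median of 184. The introns numbered 4 and 5, which Cpt1b-202 also contains, had 1172 and 594 reads, although introns 12 and 13, which it lacks, had 634 and 854. From the first exon of Cpt1b itself came 82 reads, and no read was matched from the neighbouring Chkb exon that a Chkb to Cpt1b read-through would use.

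Cidea had 5035 reads over its 4 introns. Of these, 2067 were for the first, from a junction of the same length that lay 3 bases from its place. Otop1 had 767 reads over the 5 introns of Otop1-203, all of which its protein-coding transcripts also contain. Elovl3 had 70 reads over 3 introns. Its 9 first-intron reads spanned the intron that starts at 46132174 (mm10) and belongs to Elovl3-202, and none spanned that of Elovl3-201, the transcript that was quantified. Ppargc1a had 15 reads in all, and its 4 first-intron reads came from the downstream first exon shared by Ppargc1a-201 and Ppargc1a-203. No read was matched from the upstream first exon, the one behind the promoter printed above and the one that Ppargc1a-204 uses. The transcript that led in replicate 2 thus had no matched read across its own first junction.

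Prdm16 had 262 reads over 11 introns of all its transcripts. Of the 15 introns of the full-length Prdm16-202, the first 6 had no matched read, and the most were 72 for intron 12. Into the exon that follows the printed stretch, 35 of 54 reads came from the first exon of Prdm16-213 and 15 from that of Prdm16-211. Together these were 50 of 54 reads (92.6%, exact Clopper-Pearson interval 82.1 to 97.9), and the other 4 came from the upstream exon of the long transcripts. Further downstream, 39 of 44 reads skipped the exon that Prdm16-202 and Prdm16-204 lack. The matched junctions of Prdm16 thus lay in the 3′ part of the gene, and most of those entering this exon started at internal first exons.

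**Figure D4:**
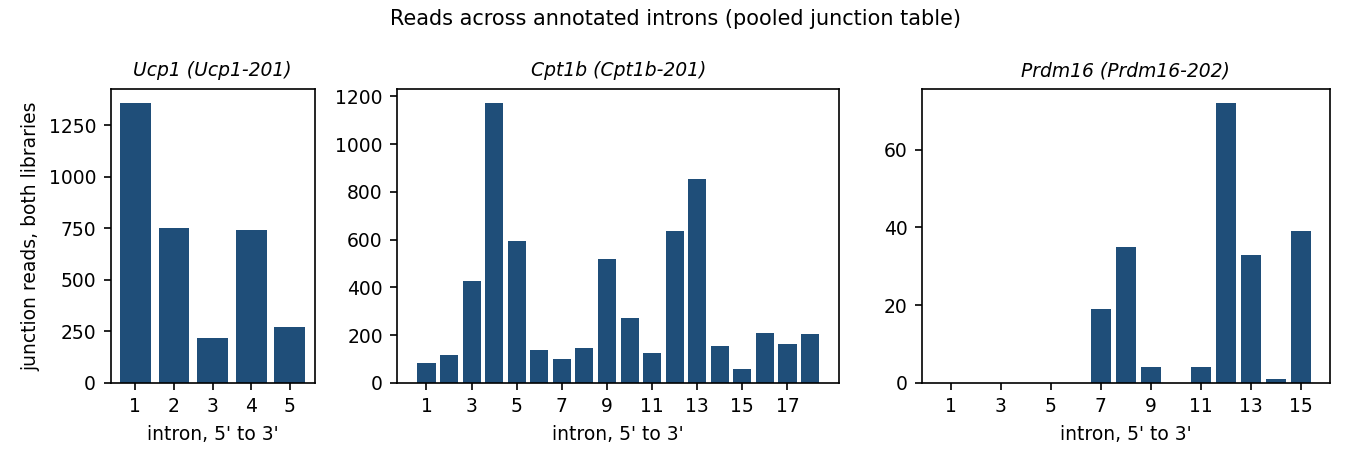
Reads across each annotated intron of Ucp1, Cpt1b and Prdm16, both libraries pooled, with introns numbered from the 5′ end and a separate read axis per gene. All introns of Ucp1-201 and Cpt1b-201 have reads, while the first 6 of the 15 introns of Prdm16-202 have none matched.

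The gene lists that follow were chosen with earlier results known, and their counts stand beside 28.7% of all mouse genes at 1 TPM or above in each library, with 4.76% called higher in replicate 1 and 2.85% in replicate 2. Of 19 receptors and regulators upstream of the thermogenic genes, 17 reached 1 TPM in both libraries, 1 was called higher in replicate 1 and none higher in replicate 2, and the median log2 ratio was 0.41 (-0.022 when scaled to the spike-ins). The 1 called was Adrb3, the beta-3 adrenergic receptor of adipocytes, at 1003.67 and 439.29 TPM (log2 ratio 1.21), a call that was lost when scaled to the spike-ins. Its level was 88.9% and 80.7% of that of Ucp1. The transcription factors Cebpb (4374.43 and 3394.69 TPM) and Cebpa (676.88 and 399.47 TPM) and the nuclear receptor Esrra (95.60 and 71.46 TPM) were the other leading members. Which cells of the tissue made them was not tested.

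Of 19 other brown adipocyte genes, 17 reached 1 TPM in both libraries, and 1 of the 18 compared was called higher in replicate 1, with a median log2 ratio of 0.30 (-0.13 when scaled to the spike-ins). The called gene was Plin5, a lipid droplet protein, at 92.11 and 42.56 TPM, and it too was not called when scaled to the spike-ins. Cox8b, a cytochrome oxidase subunit of heart, muscle and brown fat, was at 873.53 and 449.02 TPM (log2 ratio 0.94), and the transporter Slc36a2 at 234.25 and 143.15 TPM. The potassium channel Kcnk3, at 3272.72 and 3726.39 TPM, and the mitochondrial protein Letmd1, at 74.68 and 80.00 TPM, had ratios of -0.13 and -0.05. Kcnk3 is also known from adrenal cortex cells.

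Genes of the same families showed which relatives the gland held. Of 25 relatives, 13 reached 1 TPM in both libraries and 2 of the 18 compared, Ucp3 and Dio3, were called higher in replicate 1, with a median of 0.25 (-0.19 when scaled to the spike-ins, where neither was called). Ucp2, a widely expressed carrier of the same family as Ucp1, was at 457.84 and 329.84 TPM, 40.6% and 60.6% of the Ucp1 level, and Ucp3 at 35.79 and 16.80 TPM. The lipid droplet protein Cidec, at 901.06 and 510.60 TPM, stood above Cidea in both libraries, while Cideb was under 1 TPM in both. Cpt1a, the liver form, at 112.39 and 157.32 TPM over all its transcripts, had a log2 ratio of -0.43. It stood above the full-length Cpt1b-201 in both libraries. In gene TPM, Cpt1b (116.72 and 119.09) was above Cpt1a in replicate 1 and below it in replicate 2. Elovl1 (162.04 and 229.87 TPM) and Elovl5 (123.31 and 251.69 TPM), elongases of other fatty acids, were far above Elovl3, with ratios of -0.43 and -0.97. Dio3, which inactivates thyroid hormone, was at 6.01 and 2.59 TPM, above Dio2 in both libraries.

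Fatty acid oxidation genes, the route that feeds the proton leak, were all present: 15 of 15 reached 1 TPM in both libraries and none was called, with a median of 0.21 (-0.22 when scaled to the spike-ins). Etfdh (552.44 and 651.42 TPM), Cpt2 (610.66 and 490.54 TPM), Acads (311.57 and 277.20 TPM) and Acadvl (188.63 and 170.59 TPM) led. In expected counts Etfdh (5087 and 6398) was below Cpt2 (18856 and 18937) and Acads (17893 and 17126). Its place in TPM thus rests on the division by length, and its transcripts were not examined. Of 9 thyroid hormone genes, 7 reached 1 TPM in both libraries, with a median of 0.34 (-0.093 when scaled to the spike-ins). Dio3 and Crym, a thyroid hormone binding protein at 6.74 and 0.70 TPM, were called higher in replicate 1, and Crym alone was when scaled to the spike-ins. Thrsp (386.86 and 261.22 TPM), a lipogenic target of thyroid hormone, and the receptor Thra (132.22 and 104.34 TPM) led. Creatine and calcium cycling, heat sources that do not need Ucp1, had 7 of 9 genes detected in both libraries at that level and none called, with a median of 0.49. Gamt (824.14 and 827.24 TPM) and Ckb (189.44 and 129.57 TPM) led, and Ckmt2 was at 0.

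The tissue label was checked against marker lists. All 7 adrenal cortex markers (summed TPM 22690 and 30675) and all 6 chromaffin markers (3904 and 3602) reached 1 TPM in both libraries, so the defining markers of the gland were present. The 13 general adipocyte genes were also all above 1 TPM. Their summed TPM was 17928 in replicate 1 and 8908 in replicate 2, and all 13 had a positive log2 ratio (median 0.81), against 10 when scaled to the spike-ins and 12 in TPM. Cfd, at 9883.52 and 3984.45 TPM, was the largest part of that sum. It was called, though not when scaled to the spike-ins. The 7 cortex markers all had a negative ratio (median -0.57). Most adipocyte genes and Ucp1 were thus higher, and cortex genes lower, in replicate 1. In whole tissue, fewer cells of a type and less RNA per cell cannot be told apart.

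Of 8 white adipocyte genes compared, 7 had a positive ratio (median 0.57), or 6 when scaled to the spike-ins, and the summed TPM was 803 and 448. Mest (406.60 and 204.50 TPM) and Nnat (204.16 and 109.73 TPM) supplied most of that sum. In scaled counts the log2 ratio of Mest was 0.48, a smaller difference than in its TPM. Nnmt was called, though not when scaled to the spike-ins, and Lep, the hormone leptin, had the opposite sign at 7.74 and 11.77 TPM. Of 5 beige adipocyte genes 3 reached 1 TPM in both libraries, and Cited1, at 25.34 and 2.29 TPM, was called under both scalings. Relative to Adipoq, Otop1 stood at 0.100 and 0.0934, and Ucp1 at the 4.70 and 3.96 given above. Cidea stood at 0.474 and 0.671 times Adipoq and Cpt1b at 0.486 and 0.867 times, so both were lower relative to Adipoq in replicate 1. For Cpt1b this uses the gene TPM, most of it on the short Cpt1b-202. Its full-length transcript, at 34.35 and 24.54 TPM against 240.24 and 137.42 TPM for Adipoq, had a smaller gap between the libraries. The stroma markers had a summed TPM of 1558 and 1339 with none called (median 0.22, and -0.21 when scaled to the spike-ins). Most of this sum was Dlk1, at 1430.11 and 1227.49 TPM, and the next gene, Ly6a, was at 49.33 and 41.38 TPM.

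Muscle also expresses Cpt1b and Cox8b. Of 16 skeletal muscle markers 15 were under 1 TPM in both libraries, Myh4, Pvalb and Myoz1 being at 0, and the summed TPM of the list was 7.63 and 2.80. The gene above 1 TPM was Acta1, at 4.46 and 1.14 TPM. Of the 4 muscle markers compared, 3 were called higher in replicate 1 (median 1.55), or 2 when scaled to the spike-ins. The heart list summed to 3.90 and 6.34 TPM, with Nppa at 0. The part of muscle in the level of Cpt1b was not tested. The sebaceous markers, which cover another tissue known for Elovl3, summed to 3.13 and 1.61 TPM, with none of 4 at 1 TPM in both libraries. Of 9 nerve markers, 6 were called higher in replicate 1 (median 1.17), or 3 when scaled to the spike-ins. Gal, a neuropeptide, was at 169.57 and 71.35 TPM, and the summed TPM of the list was 337 and 188. The chromaffin list had a median of 0.10 (-0.34 when scaled to the spike-ins), with Chgb called, though not when scaled to the spike-ins. Its 6 genes were split, 3 with a positive ratio and 3 with a negative one. Chgb stood at 1.03 and Pnmt, at 381.21 and 593.14 TPM, at -0.60.

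The libraries also differed in genes of the sex chromosomes. Xist was at 5.70 and 12.88 TPM, and the Y-linked Ddx3y had 32 counts in replicate 1 and 0 in replicate 2. With 1 library on each side, the difference of the thermogenic genes cannot be told apart from those of adipocyte, cortex, nerve and sex-linked genes. Chkb, the neighbour that an annotated read-through joins to Cpt1b, was at 63.49 and 47.21 TPM. On the strand opposite Cidea, B430212C06Rik was at 1.83 and 1.05 TPM. The sources used here do not say whether counting used the strand.

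**Figure D5:**
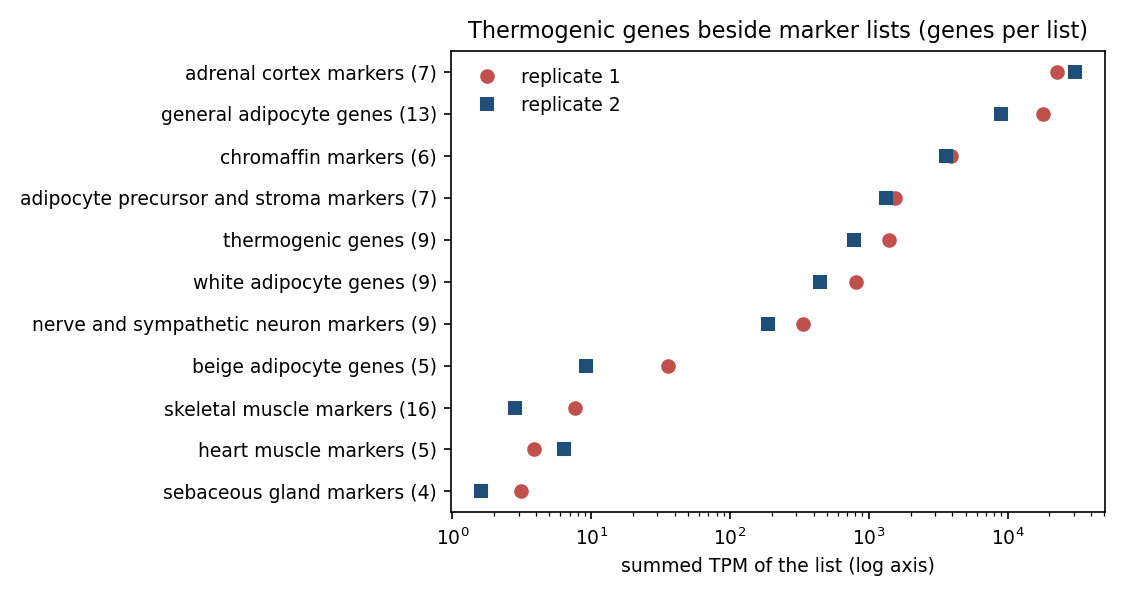
Summed TPM of the 9 thermogenic genes and of 10 marker lists in each library on a log axis (circles, replicate 1; squares, replicate 2), with the number of genes in brackets. The general adipocyte genes (17928 and 8908, Cfd being the largest part) and the thermogenic genes (1396 and 780) are higher in replicate 1. The cortex markers are lower in replicate 1, while the skeletal muscle, heart and sebaceous lists stay under 10 TPM in both.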

How the data were processed

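RNA was measured in 2 adrenal gland libraries of 1 group, numbered as biological replicates in the labels, and p-values are not given. Per the deposited readme files, the gene and transcript tables were derived from alignments to the mm10 transcriptome with annotation M4. The sources used here name neither aligner nor quantifier. The authors deposited expected counts, which are not normalized, with posterior means of the same quantities. The authors' TPM and FPKM are scaled for length and depth, spike-ins included. The authors' percent values give the share of each transcript in the TPM of its gene. The deposited interval bounds on TPM, a score whose level is not stated, were not printed. The deposited junction table in mm9 holds counts of reads pooled over both libraries.

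Depth was 48059863 and 53294872 expected counts. Spike-ins took 0.654% and 0.485% of these and were left out of library sizes. Symbols and positions came from GENCODE M21 and promoters from RefSeq (GRCm38.p6). Counts were scaled with TMM (edgeR 4.0.16, R 4.3.3), and a prior count of 0.5 was added to each log2 ratio. Genes with a summed count under 20 were left out, which removed Zic1 among the 9. Exact Clopper-Pearson intervals at 95% came from scipy 1.17.1. The 2-fold call and the interval were tried on simulated counts with counting error only, a smaller spread than between these libraries. The transcript, junction and motif steps were not simulated. Junctions were matched to introns of M21 by chromosome, strand and a chain of at least 3 intron lengths at a constant spacing; a junction of the same length up to 10 bases off was also accepted. No coordinates were converted between builds.

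The 9 genes and the 16 lists (170 genes) were chosen with earlier results of these data known. From each list, up to 4 genes with the highest mean TPM and up to 6 called genes with a mean count of at least 50 were named; relatives of the 9 could also be named. As most like Ucp1, the 5 nearest in log2 ratio at 100 TPM or more were taken. Alternatives covered the scaling, the prior count, the count minimum, the fold, TPM or posterior means in place of counts, FPKM, and leaving out each replicate.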

Additional observations from a re-analysis of the deposited data

How the results depend on the processing

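Scaling to library size or by median of ratios, a prior count of 2 and posterior mean counts kept the direction of every ratio compared. They also kept the calls among the 8 thermogenic genes compared. The genes called, 753 and 451 in the main setting, became 712 and 415 with a prior count of 2. Posterior mean counts gave 750 and 451. Scaling to the spike-ins shifted all log2 ratios by -0.43: 322 and 1361 genes were then called higher in replicates 1 and 2, 0 of the 9 genes was called, and Ucp1 stood at 0.67. It reversed Cidea (-0.087), Cpt1b (-0.0037), Ppargc1a (-0.0093, within its counting interval) and the medians of the regulators (-0.022), other brown (-0.13), oxidation (-0.22), relatives (-0.19), thyroid (-0.093), stroma (-0.21) and chromaffin (-0.34) lists; the cause was not tested. Without a count minimum 2293 and 1948 genes were called, with 1 of the 9 (Zic1, 0 and 8 counts) higher in replicate 2. A minimum of 100 gave 334 and 133, as fewer genes were tested. A 1.5-fold rule gave 1809 and 1294 genes and 4 of the 9. Ratios of TPM plus 1 gave 208 and 156 genes, 1.05 for Ucp1, -0.095 for Ppargc1a and -0.029 for Cpt1b, whose gene TPM counts a short transcript heavily. Leaving out a replicate left Ucp1 at 544 to 1129 TPM and 6 genes at 1 TPM or more, and it leaves no ratio to compute. The posterior mean gave 0.705 TPM for Ppargc1a and 0.19 for Zic1. No paired analysis was possible because both libraries belong to 1 group. Depth limits the genes under 1 TPM, whose transcripts rest on 58 counts or fewer for Ppargc1a and 8 for Zic1.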
